A study of Mus musculus with 9 samples.

Results

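The prostaglandin genes described here are 10 genes chosen by name, from the enzyme that frees arachidonic acid to the enzyme that breaks prostaglandins down: Pla2g4a, Ptgs1, Ptgs2, Ptges, Ptges2, Ptges3, Ptgis, Tbxas1, Ptger4 and Hpgd. All 10 were found among the 55401 genes of the deposited table, and 6 of them passed the filter on low values. They were measured by RNA sequencing in K7M2, a mouse osteosarcoma cell line of the WT genotype. The series compared 3 libraries of cells given mouse (A/R) platelets, 3 libraries of cells given mouse platelets without that mark and 3 libraries of untreated cells. The labels do not say what A/R means, so it serves only as a name. Titles give 24 h for every library, whereas by the treatment labels (A/R) platelet libraries stand at 27, 28 and 29 h and platelet libraries at 24, 25 and 26 h. As labelled, hours and (A/R) treatment cannot be told apart. Nothing in the labels says that replicates were separate cultures, so p-values measure the spread between libraries, which may be technical. In bulk RNA, fewer cells that express a gene and less of its RNA per cell cannot be told apart.

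Prostaglandins are short-lived lipid signals made in steps from arachidonic acid. Cytosolic phospholipase A2 cuts arachidonic acid from membranes, the cyclooxygenases COX-1 and COX-2 turn it into prostaglandin H2, and terminal synthases turn that into prostaglandin E2, prostacyclin or thromboxane. In bone, prostaglandin E2 is known to act on both formation and resorption, and its cyclooxygenase step is inducible through COX-2. Platelets themselves carry COX-1 and thromboxane synthase, the enzymes behind platelet thromboxane.

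Expression is given as FPKM, which scales fragments to transcript length and library depth, so that genes can be compared per length. Values after ± are the SD over 3 libraries for FPKM and the SE for a log2 fold change, and 3 libraries a group hold throughout. Library totals were 37465049 to 61366030 counts, at about 4 counts per fragment, and tests covered the 11826 genes that reached 1 FPKM in 3 or more libraries. A gene was called at an adjusted p under 0.05 in edgeR's quasi-likelihood test, with Benjamini-Hochberg adjustment over all genes tested. Of 9 osteoblast markers 5 passed the filter (Col1a1, Col1a2, Runx2, Spp1 and Sparc), while Alpl and Ibsp had 0 counts in all 9 libraries.

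With (A/R) platelets, the message of COX-2 was more than 3-fold higher than in untreated cells, that of cytosolic phospholipase A2 1.75-fold higher, and that of the inducible prostaglandin E synthase lower. COX-1 and the second prostaglandin E synthase were modestly higher. Of the 6 members tested, 4 rose and 1 fell against untreated cells, 5 in all, where 38.8% of all genes tested were called (19.3% higher and 19.5% lower). The members' median log2 fold change was 0.33, beside 0.00 over all genes. Against platelet cells the count was again 4 higher and 1 lower, with 34.3% of all genes called (17.1% in each direction) and a median of 0.38. For all 5, the FPKM of (A/R) platelet libraries did not overlap that of untreated or of platelet libraries, as for 51.1% and 48.9% of all genes. Platelets without the (A/R) mark changed 0 of the 6 members in edgeR's test, where 0.262% of all genes were called (0.211% higher and 0.0507% lower). At an unadjusted p under 0.05 there was 1 member, Ptgs2, as against 12.9% of all genes. DESeq2 called 1 member, again Ptgs2, and limma 0.

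**Figure D1:**
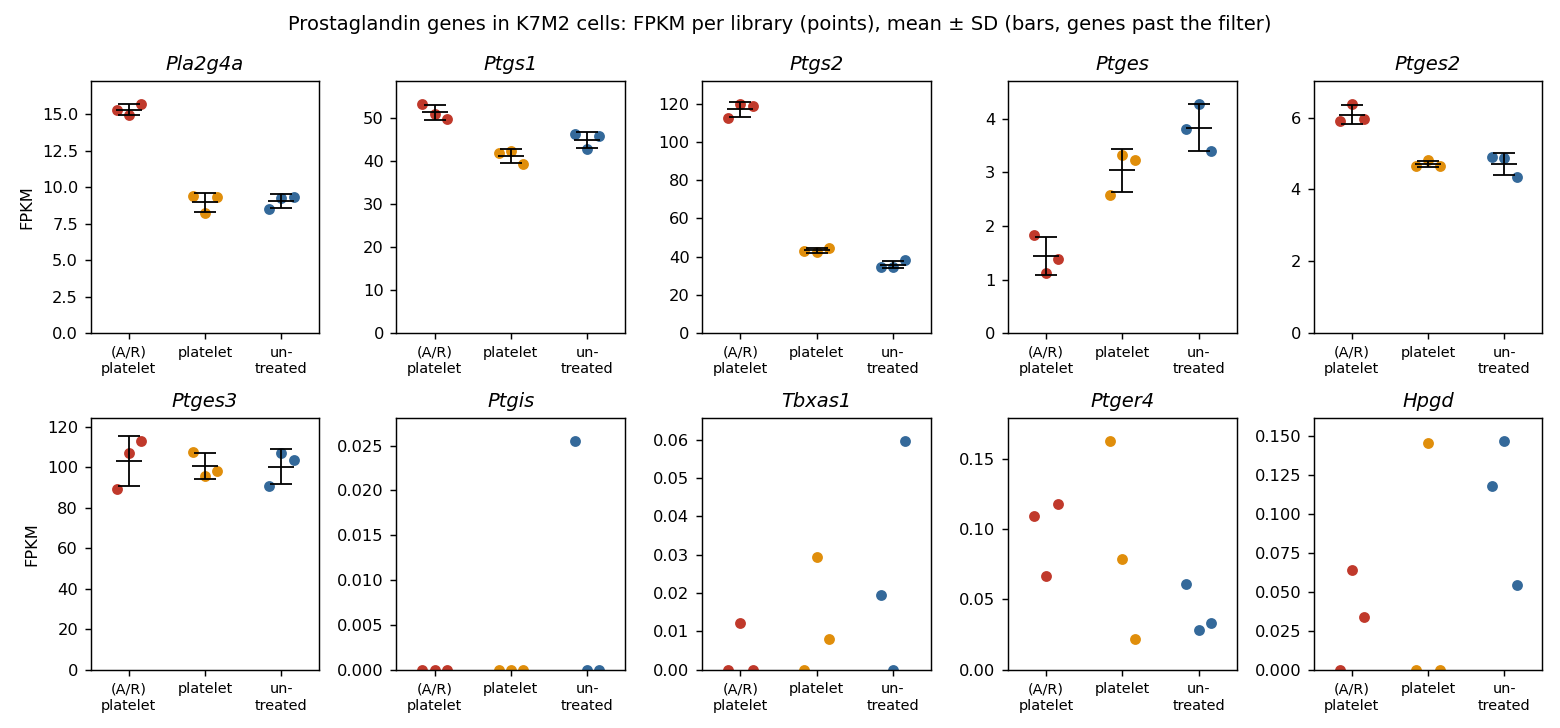
FPKM of each of the 10 genes in every library, with a panel and a linear axis per gene; points are libraries, and bars show the mean ± SD for the 6 genes past the filter. The Ptgs2 points of (A/R) platelet libraries lie at 112.5 to 119.8, above all other libraries, and those of Ptges lie lowest in the same group.

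**Figure D2:**
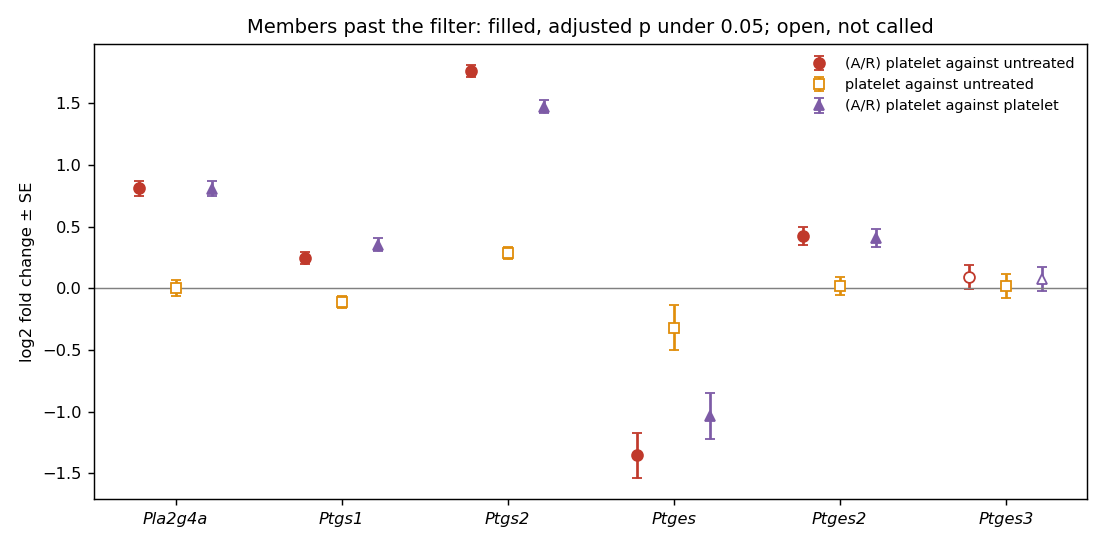
Log2 fold change with its SE for the 6 members past the filter in each of the 3 comparisons; filled symbols were called at an adjusted p under 0.05 and open symbols were not. Ptgs2 stands highest at 1.76 in (A/R) platelet against untreated cells, Ptges lowest at -1.36, and Ptges3 lies near 0 in all 3.

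The first step of the pathway is Pla2g4a, which encodes cytosolic phospholipase A2 alpha. In GRCm38 it spans 149829618 to 149961290 of chromosome 1, minus strand. Pla2g4a had 15.3, 15.0 and 15.7 FPKM in (A/R) platelet libraries, 9.36, 8.22 and 9.32 FPKM in platelet libraries, and 8.51, 9.29 and 9.35 FPKM in untreated libraries. All (A/R) platelet libraries were above all others, and the platelet and untreated libraries overlapped. The group means were 15.3 ± 0.376, 8.97 ± 0.648 and 9.05 ± 0.470 FPKM in the same order of groups. Pla2g4a was higher with (A/R) platelets than in untreated cells by 0.81 ± 0.063 (log2; edgeR adjusted p 1.92e-05) and than in platelet cells by 0.81 ± 0.063 (2.66e-05). Between platelet and untreated cells the log2 fold change was 0.00 ± 0.063 (edgeR adjusted p 0.998).

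The cyclooxygenase step is carried by Ptgs1 and Ptgs2. Ptgs1 encodes COX-1, the form found in many tissues without induction, and spans 36230426 to 36252272 of chromosome 2, plus strand. Ptgs1 had 53.3, 51.1 and 49.8 FPKM in (A/R) platelet libraries, 41.8, 42.4 and 39.5 FPKM in platelet libraries, and 46.2, 42.8 and 45.8 FPKM in untreated libraries. The (A/R) platelet libraries lay above all others, and the platelet libraries lay just below the untreated ones. Ptgs1 rose by 0.25 ± 0.049 against untreated cells (edgeR adjusted p 0.00390), a 1.19-fold change, and by 0.36 ± 0.049 against platelet cells (0.000594). In platelet against untreated cells its log2 fold change was -0.11 ± 0.049, which edgeR did not call (adjusted p 0.392), although the groups did not overlap. Groups did not overlap for 19.3% of all genes in that comparison.

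Ptgs2 encodes COX-2, the inducible cyclooxygenase, and showed the largest log2 fold change of the 6 tested members in both comparisons with (A/R) platelets. Ptgs2 had 112.5, 119.8 and 118 FPKM in (A/R) platelet libraries, 42.8, 42.2 and 44.6 FPKM in platelet libraries, and 34.8, 34.4 and 38.0 FPKM in untreated libraries. None of the 3 groups overlapped: (A/R) platelet libraries were highest, platelet libraries intermediate and untreated libraries lowest. The means were 117 ± 3.88 FPKM with (A/R) platelets, 43.2 ± 1.25 FPKM with platelets and 35.7 ± 1.96 FPKM in untreated cells. Against untreated cells the change with (A/R) platelets was 3.39-fold (log2 1.76 ± 0.052, edgeR adjusted p 2.58e-07), and 1.51% of all genes were called at least 2-fold higher there. Against platelet cells it was 2.78-fold (log2 1.47 ± 0.051, edgeR adjusted p 4.66e-07), where 1.17% of all genes were called at least 2-fold higher. In platelet against untreated cells Ptgs2 differed by 0.29 ± 0.050 on the log2 scale, 1.22-fold, with an edgeR p of 0.000282 before and 0.0784 after adjustment, so it was not called. DESeq2 called that difference at an adjusted p of 0.000709, and leaving out 1 library at a time gave edgeR adjusted p values of 0.0600 to 0.234.

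Promoter sequences are shown for Ptgs2 and Pla2g4a, which had the largest rises of the members, for Ptgs1, the other cyclooxygenase, and for Ptges, which fell. They are RefSeq's, in GRCm38.p6, and run from 250 bases before to 50 bases after the annotated start, 5′ to 3′ on the strand of the gene. RefSeq entries were matched by symbol for 9 of the 10 members. Capitals mark the letters of any motif searched.
Ptgs2, chr1:150099781-150100080, plus strand: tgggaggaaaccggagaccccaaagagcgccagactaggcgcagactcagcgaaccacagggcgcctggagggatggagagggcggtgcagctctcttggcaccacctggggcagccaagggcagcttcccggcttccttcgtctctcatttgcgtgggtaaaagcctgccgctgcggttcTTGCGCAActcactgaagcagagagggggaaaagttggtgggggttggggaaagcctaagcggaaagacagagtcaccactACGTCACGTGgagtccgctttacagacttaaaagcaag
Pla2g4a, chr1:149961241-149961540, minus strand: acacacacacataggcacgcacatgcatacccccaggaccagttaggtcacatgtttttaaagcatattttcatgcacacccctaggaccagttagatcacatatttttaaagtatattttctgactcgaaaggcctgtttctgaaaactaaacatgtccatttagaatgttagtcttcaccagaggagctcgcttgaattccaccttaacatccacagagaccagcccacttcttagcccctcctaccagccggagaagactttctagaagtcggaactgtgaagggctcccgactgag
Ptgs1, chr2:36230176-36230475, plus strand: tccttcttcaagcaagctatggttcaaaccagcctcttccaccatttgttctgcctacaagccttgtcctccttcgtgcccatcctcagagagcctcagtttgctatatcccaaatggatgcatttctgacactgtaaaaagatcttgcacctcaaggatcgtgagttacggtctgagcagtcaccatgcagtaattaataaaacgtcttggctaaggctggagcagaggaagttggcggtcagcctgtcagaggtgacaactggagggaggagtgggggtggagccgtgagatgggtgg
Ptges, chr2:30903248-30903547, minus strand: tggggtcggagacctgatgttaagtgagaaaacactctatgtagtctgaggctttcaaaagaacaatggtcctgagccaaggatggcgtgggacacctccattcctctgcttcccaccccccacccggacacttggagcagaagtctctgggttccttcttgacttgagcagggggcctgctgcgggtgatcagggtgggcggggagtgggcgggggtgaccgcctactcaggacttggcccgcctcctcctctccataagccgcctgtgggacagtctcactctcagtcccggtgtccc
The motifs searched on both strands were the cyclic AMP response element TGACGTCA and its short form ACGTCA, the E-box CACGTG, the C/EBP palindrome TTGCGCAA, the composite TGATGNAAT of C/EBP and ATF4, the AP-1 element TGANTCA, the TATA box TATAAA, and the kappa B element. The Ptgs2 window held TTGCGCAA at -69 to -62 from the start, ACGTCA at 13 to 18 and CACGTG at 17 to 22, and the last pair overlap each other. Among 32851 RefSeq promoter windows of the same length, 0.183% held TTGCGCAA, 7.51% held ACGTCA and 7.15% held CACGTG. The windows of Pla2g4a, Ptgs1 and Ptges shown here held 0 of the motifs. A second RefSeq start of Pla2g4a, at 149922439, had a TATA box match, TTTATA, at -200 to -195. Of the members not shown, Ptges2 held CACGTG at -77 to -72 and Ptges3 a kappa B element. Tbxas1 held TGATTCA at -61 to -55, a match to TGANTCA, in which N is any base. It also held TATA box matches at -13 to -8 and -11 to -6. Hpgd held TATAAA at 5 to 10, after its start, and Ptger4 held 0 motifs. Among all windows 13.6% held the TATA box, 7.81% TGANTCA and 8.46% the kappa B element. These matches describe letters in a window and show no binding.

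The balance of the cyclooxygenases was taken as the share of Ptgs2 in the summed FPKM of Ptgs1 and Ptgs2, a ratio within a library that needs no scaling between libraries. The share was 67.8%, 70.1% and 70.4% in (A/R) platelet libraries, 50.6%, 49.9% and 53.1% in platelet libraries, and 42.9%, 44.6% and 45.3% in untreated libraries. COX-2 thus made up most of the cyclooxygenase message with (A/R) platelets and less than COX-1 in every untreated library. The 3 groups did not overlap. The mean share with (A/R) platelets was 25.2 points above that of untreated cells and 18.3 points above that of platelet cells, and the mean with platelets was 6.90 points above that of untreated cells. In an exact two-sided permutation test each difference had p 0.1, also after adjustment over the 3 comparisons, which is the smallest that 3 against 3 libraries allow. Ptgs2 alone separated the 3 groups. Ptgs1 lay lower in platelet than in untreated libraries, and rose far less than Ptgs2 with (A/R) platelets. The groups therefore could not overlap in this share, and each p was fixed by those values. The share and its test add no evidence to the values of Ptgs1 and Ptgs2.

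**Figure D3:**
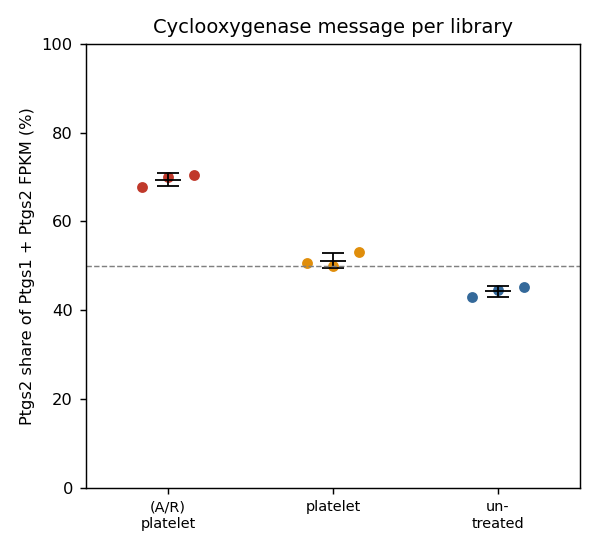
Share of Ptgs2 in the summed FPKM of Ptgs1 and Ptgs2, in percent, for each library (points) with the mean ± SD of each group (bars); the dashed line marks equal FPKM. Means are 69.4% with (A/R) platelets, 51.2% with platelets and 44.3% in untreated cells.

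The prostaglandin E synthases act after the cyclooxygenases and went different ways. Ptges encodes microsomal prostaglandin E synthase 1, the inducible form often coupled to COX-2, and spans 30889471 to 30903297 of chromosome 2, minus strand. Ptges had 1.83, 1.13 and 1.38 FPKM in (A/R) platelet libraries, 2.58, 3.32 and 3.23 FPKM in platelet libraries, and 3.81, 4.28 and 3.41 FPKM in untreated libraries. No groups overlapped, and the order of the groups was the reverse of that for Ptgs2. With (A/R) platelets Ptges fell by 1.36 ± 0.18 on the log2 scale against untreated cells (edgeR adjusted p 0.000460), to 0.391 of their level, and by 1.04 ± 0.18 against platelet cells (0.00233). In platelet against untreated cells its log2 fold change was -0.32 ± 0.18 and was not called (edgeR adjusted p 0.487).

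The FPKM of Ptgs2 was divided by that of Ptges in each library, a ratio chosen after the values were seen. It was 61.5, 106.3 and 85.9 in (A/R) platelet libraries, 16.6, 12.7 and 13.8 in platelet libraries, and 9.11, 8.04 and 11.1 in untreated libraries. Ptgs2 and Ptges each separated the 3 groups, in opposite orders, so the groups could not overlap in this ratio. It therefore adds no evidence to the values of those genes. The means were 84.6 ± 22.5 with (A/R) platelets, 14.4 ± 2.00 with platelets and 9.43 ± 1.57 in untreated cells.

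Ptges2 encodes microsomal prostaglandin E synthase 2, and spans 32395896 to 32405772 of chromosome 2, plus strand. Ptges2 had 5.90, 6.38 and 5.97 FPKM in (A/R) platelet libraries, 4.66, 4.82 and 4.66 FPKM in platelet libraries, and 4.90, 4.87 and 4.35 FPKM in untreated libraries. The (A/R) platelet libraries were above all others, and the platelet and untreated libraries overlapped. Ptges2 rose 1.34-fold against untreated cells (log2 0.42 ± 0.073, edgeR adjusted p 0.00177) and 1.33-fold against platelet cells (0.41 ± 0.073, 0.00249). Between platelet and untreated cells its log2 fold change was 0.02 ± 0.073 (edgeR adjusted p 0.952).

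Ptges3 encodes the cytosolic prostaglandin E synthase, also known as p23, a partner of the chaperone Hsp90, and spans 128058954 to 128077272 of chromosome 10, plus strand. It had 89.1, 107 and 113 FPKM in (A/R) platelet libraries, 107.6, 95.5 and 98.2 FPKM in platelet libraries, and 90.7, 107 and 103 FPKM in untreated libraries. The groups overlapped in every comparison, and edgeR called none of them, with log2 fold changes of 0.09 ± 0.095 (adjusted p 0.496), 0.07 ± 0.095 (0.598) and 0.02 ± 0.095 (0.960) for (A/R) platelet against untreated, (A/R) platelet against platelet and platelet against untreated cells. The processed pseudogene Ptges3-ps on chromosome 6, chosen after its values were seen, had 179 ± 13.9 FPKM with (A/R) platelets, 166 ± 14.5 FPKM with platelets and 167 ± 10.3 FPKM in untreated cells. How fragments were shared between the gene and this copy is not stated in any source used, and the level of Ptges3 is therefore uncertain.

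The other 4 members were below 1 FPKM in all 9 libraries. Ptgis, prostacyclin synthase (chromosome 2, 167191805 to 167240604, minus strand), had 0 counts in every (A/R) platelet and platelet library, and 4, 0 and 0 counts in untreated libraries. Tbxas1, thromboxane synthase (chromosome 6, 38875404 to 39084585, plus strand), had 0, 8 and 0 counts in (A/R) platelet libraries, 0, 15 and 4 counts in platelet libraries, and 11, 0 and 23 counts in untreated libraries. Hpgd, the 15-hydroxyprostaglandin dehydrogenase that inactivates prostaglandins (chromosome 8, 56294585 to 56321043, plus strand), had 0, 8 and 4 counts in (A/R) platelet libraries, 0, 13 and 0 counts in platelet libraries, and 12, 15 and 4 counts in untreated libraries. At about 4 counts per fragment these are a few fragments at most, and a library with 0 counts still allows up to 12 counts, or 0.196 to 0.320 CPM (counts scaled to the library total). Such limits cover counting error only.

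Ptger4 encodes EP4, a receptor of prostaglandin E2 that raises cyclic AMP, and spans 5206661 to 5244172 of chromosome 15, minus strand. Ptger4 had 37, 31 and 53 counts in (A/R) platelet libraries, 64, 29 and 8 counts in platelet libraries, and 24, 12 and 10 counts in untreated libraries. In FPKM this was 0.109, 0.066 and 0.118 with (A/R) platelets, against 0.061, 0.028 and 0.033 in untreated cells. These 2 groups did not overlap, as for 51.1% of the genes tested, a set without Ptger4. The platelet libraries, at 0.163, 0.079 and 0.022 FPKM, overlapped both. In a fit of 25323 genes without the filter, the log2 fold change of Ptger4 in (A/R) platelet against untreated cells was 1.26 with an edgeR adjusted p of 0.289, and none of these 4 genes was called in any comparison. Ptger4 overlaps Ttc33, a gene of the opposite strand with a mean of 17.8 FPKM, over 11676 bases. Tbxas1 overlaps Hipk2, at 6.07 FPKM, over 762 bases, and whether counting used strand is not stated in any source used.

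The order of levels among the members changed between groups. In (A/R) platelet libraries Ptgs2 and Ptges3 came first and overlapped each other (lowest Ptgs2 112.5, highest Ptges3 113 FPKM), followed by Ptgs1, Pla2g4a, Ptges2 and Ptges, which did not overlap their neighbours. In platelet libraries Ptges3 came first, and Ptgs2 and Ptgs1 overlapped (lowest Ptgs2 42.2, highest Ptgs1 42.4 FPKM). In untreated libraries the order was Ptges3, Ptgs1, Ptgs2, Pla2g4a, Ptges2 and Ptges, with no overlap between neighbours, though the gap between Ptges2 and Ptges was small (lowest Ptges2 4.35, highest Ptges 4.28 FPKM). Ptgs2 thus stood above Ptgs1 in all 3 (A/R) platelet libraries and below it in all 3 untreated libraries.

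Ptgs2 and Pla2g4a are neighbours on chromosome 1, with Ptgs2 on the plus strand, from 150100031 to 150108227, and the start of Pla2g4a at -139 kb from that of Ptgs2. Within 300 kb of the start of Ptgs2, a window chosen after the values were seen, the table holds 15 genes, of which 7 were tested. In (A/R) platelet against untreated cells 2 of the 7 rose, Ptgs2 and Pla2g4a, and 2 fell, the minus-strand transcripts Ptgs2os, annotated as antisense, and Ptgs2os2, annotated as a lincRNA. Over all genes tested 19.3% were called higher and 19.5% lower there. Ptgs2os starts at -0.068 kb from the start of Ptgs2 and runs away from it. It had 1.16 ± 0.117 FPKM with (A/R) platelets, 2.05 ± 0.567 FPKM with platelets and 2.16 ± 0.164 FPKM in untreated cells, and fell by 0.84 ± 0.19 on the log2 scale against untreated cells (edgeR adjusted p 0.00690). Ptgs2os2, whose start lies 64.9 kb beyond that of Ptgs2, had 21.7 ± 1.52, 29.5 ± 2.24 and 30.8 ± 1.12 FPKM in the same order of groups and fell by 0.46 ± 0.075 against untreated cells (0.00139). The other tested genes of the window, Rbm3-ps (0.26, edgeR adjusted p 0.323), Tpr (0.13, 0.111) and Odr4 (0.16, 0.664), were not called. In platelet against untreated cells 0 of the 7 were called by edgeR (Ptgs2os -0.06, adjusted p 0.927; Ptgs2os2 -0.05, adjusted p 0.830), and Ptgs2 alone had an unadjusted p under 0.05.

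**Figure D4:**
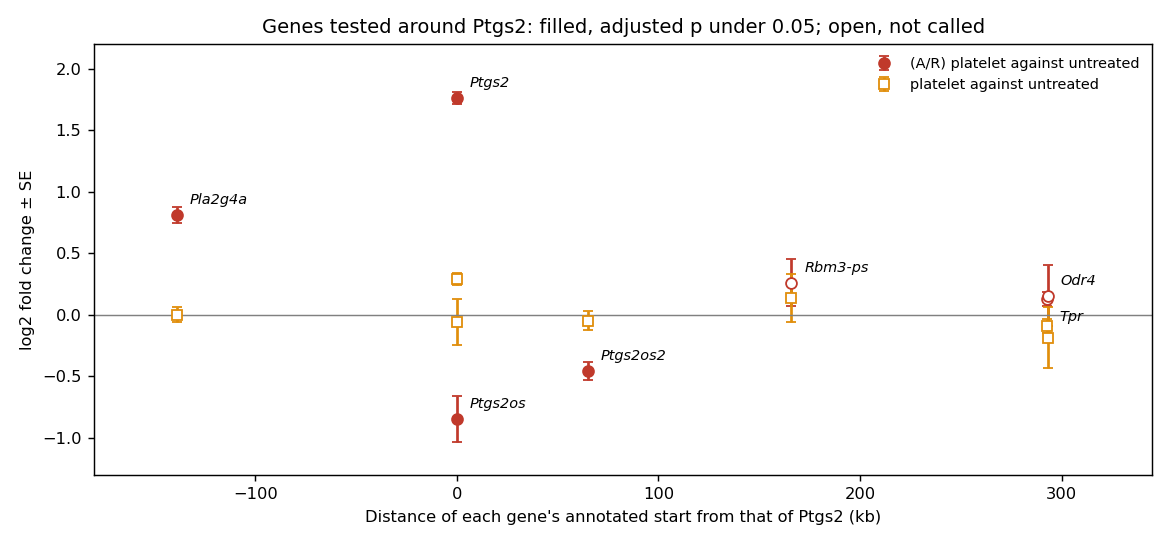
Log2 fold change with its SE for the 7 tested genes within 300 kb of Ptgs2, against the distance of each gene's start from that of Ptgs2 in kb; filled symbols were called and open symbols were not. Ptgs2 (1.76) and Pla2g4a (0.81) lie above 0 and Ptgs2os (-0.84) and Ptgs2os2 (-0.46) below it in (A/R) platelet against untreated cells.

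The genes whose pattern over the 9 libraries was most like that of Ptgs2 were sought among 6711 genes. These had a mean of at least 5 FPKM in the highest group. Members, genes with predicted or clone names (such as Gm or Rik) and those named -ps were left out. Likeness was measured by the root mean square difference of centred log2 CPM. The nearest was Slc25a33, a mitochondrial pyrimidine nucleotide carrier, at a difference of 0.108, with mean levels of 29.4 FPKM with (A/R) platelets, 10.8 FPKM with platelets and 7.88 FPKM in untreated cells. Next came the histone demethylase gene Kdm6b (0.119), Ppp1r15a, a regulatory subunit of the phosphatase of eIF2 alpha (0.126), the metalloproteinase inhibitor gene Timp3 (0.133) and Gpat3, a glycerol-3-phosphate acyltransferase (0.140). For scale, Ptgs2 itself spanned 1.86 on the log2 scale over the 9 libraries.

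Upstream of the cyclooxygenases, genes that free arachidonic acid other than Pla2g4a moved in both directions with (A/R) platelets. Of 22 listed genes 8 were tested, and 3 rose and 2 fell against untreated cells, with a median log2 fold change of -0.05. In that comparison 19.3% of all genes tested were called higher and 19.5% lower, 38.8% in all, with a median of 0.00, and the counts of each list below stand beside these shares. Pla2g2e, a secreted phospholipase A2, had 2.38, 3.48 and 2.78 FPKM in (A/R) platelet libraries and 1.27, 1.35 and 1.20 FPKM in untreated libraries, without overlap (log2 1.23 ± 0.24, edgeR adjusted p 0.00317). Pla2g5, another secreted phospholipase A2, had 5.72, 5.61 and 6.22 FPKM with (A/R) platelets and 3.77, 4.53 and 3.80 FPKM in untreated cells (0.58 ± 0.12, 0.00554). Plaat3 rose by 0.21 (0.0289) and Abhd6, a monoacylglycerol lipase, fell by 0.46 (0.0363), calls that held in 8 of 18 alternative fits each, with adjusted p up to 0.0923 and 0.119. The call of Plaat3 was lost without (A/R) platelet replicate 1 or 3 or any untreated replicate, without the filter, with limma and with only the 6 libraries compared. That of Abhd6 was lost without any (A/R) platelet replicate, platelet replicate 2, or untreated replicate 2 or 3, without the filter, with filterByExpr and with only the 6 libraries compared.

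Among 12 listed genes that return arachidonic acid and other acyl chains to membrane lipids, 10 were tested, and 0 rose and 3 fell with (A/R) platelets against untreated cells, where 38.8% of all genes were called and 19.5% called lower. Their median log2 fold change was -0.12. Lpcat1, a lysophosphatidylcholine acyltransferase, had a mean of 9.25 FPKM with (A/R) platelets and 14.5 FPKM in untreated cells (log2 -0.60 ± 0.052, edgeR adjusted p 3.54e-05). Lpcat3, which places arachidonic acid in phosphatidylcholine, fell by 0.32 ± 0.072 (0.00718), and Mboat7, which places it in phosphatidylinositol, by 0.41 ± 0.11 (0.0202). The call of Mboat7 was lost without untreated replicate 1 or 3 (adjusted p up to 0.0588). Of 4 listed partners of cytosolic phospholipase A2, all tested, only Plaa, the phospholipase A2 activating protein, was called, with 29.8 FPKM with (A/R) platelets and 24.0 FPKM in untreated cells (0.36 ± 0.039, 0.000118).

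Other prostanoid synthases and reductases numbered 11 listed and 6 tested, of which 0 rose and 2 fell with (A/R) platelets against untreated cells, a share near the 38.8% of all genes called. Akr1b8, an aldo-keto reductase, had 30.5 FPKM with (A/R) platelets and 46.6 FPKM in untreated cells (log2 -0.56 ± 0.064, edgeR adjusted p 0.000170). Ptgr2, prostaglandin reductase 2, fell by 0.49 ± 0.15 (0.0295), a call lost without (A/R) platelet replicate 2 or 3 or any untreated replicate (up to 0.0974). The prostanoid receptor list held 9 genes, without Ptger4 and with Ptgfrn, a gene named for a receptor regulator rather than a receptor. Of these 9 genes 2 were tested, Ptgir and Ptgfrn, and 1 was called. Ptgir, the prostacyclin receptor, had 1.01, 0.794 and 0.785 FPKM in (A/R) platelet libraries and 1.22, 1.27 and 1.37 FPKM in untreated libraries (log2 -0.52 ± 0.15, edgeR adjusted p 0.0248). Its call was lost without (A/R) platelet replicate 2 or 3 or untreated replicate 2 or 3 (up to 0.0797), without the filter (0.0771) and with only the 6 libraries compared (0.0503).

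Among 7 genes of prostaglandin transport and breakdown, 5 were tested, and 1 rose and 3 fell against untreated cells, where 38.8% of all genes were called. Abcc1, an exporter of conjugated lipids, had 29.5 FPKM with (A/R) platelets and 22.1 FPKM in untreated cells (log2 0.47 ± 0.061, edgeR adjusted p 0.000377). The organic anion transporter gene Slco3a1 fell by 0.54 ± 0.062 (0.000163) and Hadha, of mitochondrial fatty acid oxidation, by 0.18 ± 0.046 (0.0123). The call of Hadha was lost without (A/R) platelet replicate 1 or 3 (up to 0.0530) and without the filter (0.0532). Of 18 genes of the lipoxygenase and leukotriene branch 4 were tested and 0 were called by edgeR, and the smallest p was that of Mgst3, a glutathione transferase of that branch, at -0.12 ± 0.069 (adjusted p 0.224). Limma on FPKM called Mgst3 with both pseudocounts.

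**Figure D5:**
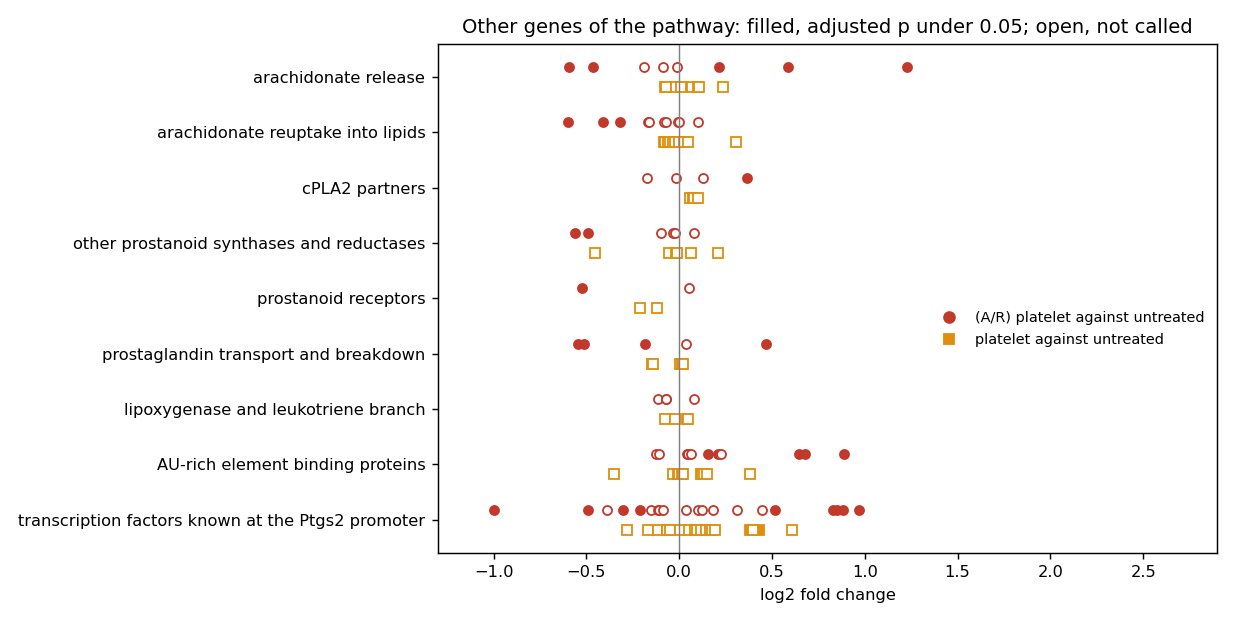
Log2 fold change of the tested genes of each pathway list, a row per list, with (A/R) platelet against untreated cells above platelet against untreated cells in each row; filled symbols were called at an adjusted p under 0.05 and open symbols were not. With (A/R) platelets the reuptake list holds 3 called genes below 0 and 0 above, and the list of AU-rich element binding proteins 5 above and 0 below.

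The Ptgs2 message is known to carry AU-rich elements that govern its decay, so genes of proteins that bind such elements were listed. Of 12 listed 11 were tested, and 5 rose and 0 fell with (A/R) platelets against untreated cells, with a median of 0.15, where 38.8% of all genes were called and 19.3% called higher. Zfp36l2, which promotes decay of such messages, had 71.4, 76.3 and 71.6 FPKM in (A/R) platelet libraries, 43.6, 45.1 and 46.3 FPKM in platelet libraries, and 40.8, 41.5 and 40.3 FPKM in untreated libraries (log2 0.89 ± 0.043 against untreated cells, edgeR adjusted p 1.59e-06). Its relative Zfp36, tristetraprolin, rose by 0.64 ± 0.15 (0.00805). Hnrnpd rose by 0.15 (0.0137) and Tial1 by 0.21 (0.0273). The calls of Hnrnpd and Tial1 were lost with limma on FPKM (up to 0.0638 and 0.0977). That of Tial1 was also lost without (A/R) platelet replicate 3 or any untreated replicate (up to 0.0868), and held in 11 of 18 alternatives.

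Transcription factors known at the Ptgs2 promoter numbered 26 listed and 20 tested. With (A/R) platelets 5 rose and 4 fell against untreated cells, shares near the 19.3% and 19.5% of all genes called in each direction, with a median of 0.07. Atf4, a stress factor of the ATF family, had 216 FPKM with (A/R) platelets and 115 FPKM in untreated cells (log2 0.97 ± 0.045, edgeR adjusted p 1.35e-06). Fosl1, which encodes the AP-1 subunit Fra-1, had 118 FPKM with (A/R) platelets and 66.2 FPKM in untreated cells (0.88 ± 0.046, 2.35e-06). Relb, an NF-kappa B subunit, rose by 0.85 ± 0.080 (5.41e-05) and Nfatc1, a calcium-responsive factor, fell by 1.00 ± 0.075 (1.61e-05). Other genes of these families, named outside the rule for named genes, did not all follow. Nfkb1 fell by 0.21 ± 0.042 (edgeR adjusted p 0.00379), and Rela, Rel and Nfkb2 were not called. Of the AP-1 genes, Junb rose by 0.83 ± 0.13 (0.00111), Fosl2 fell by 0.30 ± 0.050 (0.00144), and Jun and Jund were not called.

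In platelet against untreated cells the transcription factor list had the only calls of the 9 pathway lists, 2 of 20 tested genes, where 0.262% of all genes were called. Fosl1 had 85.5 FPKM with platelets and 66.2 FPKM in untreated cells (log2 0.38 ± 0.046, edgeR adjusted p 0.0128), and the call was lost without untreated replicate 1 or 2 (up to 0.0641) and with only the 6 libraries compared (0.0633), and held in 14 of 18 alternatives. Jun had 34.8 FPKM with platelets and 26.1 FPKM in untreated cells (0.43 ± 0.061, 0.0322). The call of Jun was lost without any platelet or untreated replicate, or without (A/R) platelet replicate 2 (up to 0.138), without the filter (0.0527) and with limma on log2(FPKM + 0.1) (0.0503), and held in 8 of 18 alternatives. The other 8 lists had 0 calls by edgeR, and in 7 of them the smallest p belonged to Pla2g5 (0.24, adjusted p 0.461), Lpcat1 (-0.08, 0.543), Plaa (0.10, 0.343), Akr1b8 (0.21, 0.266), Ptgfrn (-0.12, 0.480), Mgst3 (0.04, 0.831) and Zfp36l2 (0.15, 0.237).

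In (A/R) platelet against platelet cells, which share the (A/R) platelet libraries with the first comparison, Pla2g2e (log2 1.13, edgeR adjusted p 0.00543), Zfp36l2 (0.74, 5.09e-06), Atf4 (0.79, 4.52e-06), Fosl1 (0.50, 6.46e-05) and Abcc1 (0.45, 0.000541) were higher. Akr1b8 (-0.77, edgeR adjusted p 3.79e-05), Lpcat1 (-0.52, 0.000103), Nfatc1 (-0.72, 0.000127) and Slco3a1 (-0.40, 0.00115) were lower. Of the 11 AU-rich element binding proteins tested, 4 rose and 1 fell in this comparison. Over all genes tested 34.3% were called there, 17.1% in each direction. The fall was that of Zfp36l1, a relative of Zfp36l2 (-0.26 ± 0.051, edgeR adjusted p 0.00430). Its adjusted p against untreated cells was 0.0824. S100a10, which binds cytosolic phospholipase A2 and annexin A2, fell by 0.25 (edgeR adjusted p 0.0212), lost without (A/R) platelet replicate 2 or platelet replicate 1 or 3 (up to 0.0783), and held in 14 of 18 alternatives.

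Markers of platelets and other cell types were summed per library. The 16 platelet markers, of which only Ppbp passed the filter and 5 had 0 counts in all 9 libraries (Tubb1, Gp6, Treml1 and Clec1b among them), summed to 1.71 to 2.45 FPKM in (A/R) platelet libraries, 2.85 to 3.61 FPKM in platelet libraries, and 3.05 to 4.44 FPKM in untreated libraries. Most of that sum was Ppbp, with means of 1.57 FPKM with (A/R) platelets, 2.65 FPKM with platelets and 3.27 FPKM in untreated cells. Other platelet markers had another order, such as Pf4, with 0.286, 0.0850 and 0.203 FPKM in the same order of groups. The 12 leukocyte and macrophage markers, 3 of them at 0 throughout, summed to 30.6 to 33.6 FPKM with (A/R) platelets and 54.7 to 61.6 FPKM with platelets. In untreated cells they summed to 47.7 to 54.2 FPKM. Most of each sum was Cd14, and Ptprc had 0 to 12 counts per library. By its means Lyz2 had the order of Cd14 (0.454, 2.10 and 1.16 FPKM with (A/R) platelets, with platelets and in untreated cells). Its counts were 9, 82 and 30 in (A/R) platelet libraries, 79, 347 and 21 in platelet libraries, and 104, 152 and 12 in untreated libraries. The groups thus overlapped, and the platelet mean rested largely on replicate 2. Cd68 had another order of means, with 3.45, 3.18 and 2.65 FPKM. The 5 endothelial markers summed to 0.534 to 0.710 FPKM with (A/R) platelets, 1.14 to 1.22 FPKM with platelets and 1.04 to 1.51 FPKM in untreated cells. Nearly all of that was Cdh5, with means of 0.590, 1.13 and 1.24 FPKM in the same order of groups. The 6 erythroid markers, of which 1 was at 0 throughout, summed to 1.33 to 2.06, 1.52 to 2.70 and 0.838 to 1.97 FPKM in the same order of groups. The 9 osteoblast markers summed to 493 to 503 FPKM with (A/R) platelets, 564 to 592 FPKM with platelets and 589 to 618 FPKM in untreated cells. Col1a1, Col1a2, Spp1 and Sparc had their lowest means with (A/R) platelets. Runx2 had its highest mean there, with 3.82, 3.21 and 3.45 FPKM in the same order of groups. Its counts overlapped, at 1710, 2193 and 2371 in (A/R) platelet libraries, 978, 1958 and 1606 in platelet libraries, and 1433, 1992 and 1398 in untreated libraries. What part the differences in the platelet, leukocyte, endothelial and osteoblast sums have in the members' changes was not tested.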

How the data were processed

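Total RNA of K7M2 cells was sequenced after an mRNA library kit, per the labels' protocols. The authors deposited 1 table with FPKM and estimated counts for each of 9 libraries, on build GRCm38 (mm10), as named in the submitters' processing notes. Aligner, counter and strand setting: not given in the sources used here. In the deposited counts genes pile up at 4 (898 to 1116 genes per library, against 286 to 342 at 3 counts), so 1 fragment adds about 4 counts and totals overstate depth. Genes without counts are listed at an FPKM of 0.0001, taken as 0 here. All deposited counts were whole, so no rounding was needed.

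Genes with FPKM of at least 1 in at least 3 libraries (11826, holding 99.4% to 99.5% of counts) were tested with edgeR 4.0.16 in R 4.3.3: TMM scaling, quasi-likelihood test, 9 libraries in 1 fit of 3 group means, Benjamini-Hochberg adjustment, threshold 0.05. The SE was derived from the size of the log2 fold change and the root of its F statistic. DESeq2 1.42.0 and limma 3.58.1 on log2(FPKM + 1) and log2(FPKM + 0.1) were among the alternatives. The test was checked on simulated counts. Members and lists were chosen with earlier results of these data known. Named genes are all members, up to 4 called genes of each pathway list by smallest p (1 where none was called), and the 5 genes nearest to Ptgs2 in pattern. Genes outside this rule are marked in the text, and some results are not reported here. Plaat3 and Prxl2b were matched to the lists through RefSeq synonyms. Chi-square values per gene between libraries of a group were 9.61 to 17.1, so no library was a repeat deposit of another in its group. Libraries of different groups were not compared in this way. The labels name no batch.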

Additional observations from a re-analysis of the deposited data

How the results depend on the processing

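The 5 members called with (A/R) platelets, against untreated and against platelet cells, kept their direction and their call in all 18 alternatives, with log2 fold changes against untreated cells of 1.68 to 1.81 for Ptgs2, 0.70 to 0.83 for Pla2g4a, 0.19 to 0.27 for Ptgs1, 0.31 to 0.45 for Ptges2 and -1.55 to -0.99 for Ptges, and Ptges3 was called in 0. For platelet against untreated cells the number of genes called was 31 in edgeR's fit of 9 libraries, 222 with DESeq2 (139 higher and 83 lower), 18 with only the 6 libraries compared and 18 to 26 without 1 library, 18 of them without platelet replicate 3. DESeq2 called 1 member there, Ptgs2. The near-zero log2 fold changes of platelet against untreated cells changed sign: Pla2g4a was -3.51e-05 with DESeq2, -0.013 and -0.014 with limma at pseudocounts of 1 and 0.1 and -0.038 to 0.058 without 1 library, Ptges2 -0.039 to 0.049 and Ptges3 -0.047 to 0.064 without 1 library. The cause was not tested. The difference in the Ptgs2 share ranged over 24.5 to 26.0 points for (A/R) platelet against untreated cells, 17.6 to 19.2 for (A/R) platelet against platelet cells and 5.96 to 7.55 for platelet against untreated cells without 1 library. Alternatives for the other named genes were added after the data were seen: 421 of their values stayed on their side of the threshold, 45 lost the call and 2 gained it in (A/R) platelet against untreated cells, 416, 31 and 3 in (A/R) platelet against platelet cells, and 166, 14 and 0 in platelet against untreated cells, with 0 changes of sign.

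With the replicate number as a block, 4171 genes were called for (A/R) platelet against untreated cells, 3725 for (A/R) platelet against platelet cells and 0 for platelet against untreated cells, with 5, 5 and 0 members, and the log2 fold change of Pla2g4a in the last was -0.00039. Same-numbered libraries correlated at -0.03 to 0.05 in their deviations from the group means, and 4 of 9 libraries correlated best with their own number, so the numbers do not pair the libraries. With the block, the text's calls were lost (edgeR adjusted p in parentheses) for Plaat3 (0.0530), Abhd6 (0.0747) and Tial1 (0.0572) in (A/R) platelet against untreated cells, S100a10 (0.0510) in (A/R) platelet against platelet cells, and Fosl1 (0.0749) and Jun (0.0818) in platelet against untreated cells. The fold changes of low members rest on few fragments: a library with 0 counts allows up to 0.320 CPM.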
